A study of Homo sapiens with 12 samples.

Results

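The genes described here are 9 human genes outside the carnitine shuttle that are known targets of peroxisome proliferator-activated receptors (PPARs), namely PDK4, ANGPTL4, PLIN2, FABP3, ACSL1, ACSL3, TXNIP, PEX11A and ACAA2. They were taken by symbol from a table of 50868 genes, where each symbol had 1 row, and 8 of the 9 had enough reads to be tested. PPARs are nuclear receptors that are activated by fatty acids, pair with a retinoid X receptor (RXR) and bind a direct repeat of the hexamer AGGTCA near genes of fat use and storage. PPARA is best known in liver, PPARG in adipose tissue, and PPARD in many tissues, epithelia among them. Perfluoroalkyl carboxylic acids resemble fatty acids in shape, and several are known to activate PPARA in reporter assays.

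Expression was measured by RNA-seq in RPMI2650, an established human nasal epithelial tumour line of wild-type genotype grown at an air-liquid interface. Of the 12 libraries, 4 came from cells given perfluorohexanoic acid (PFHxA), 4 from cells given perfluorobutanoic acid (PFBA) and 4 from control cells, with each acid at 1 µM over 7 days. PFHxA is the acid with the longer perfluoroalkyl chain. The labels give the controls no day and no vehicle. They also do not say that libraries of a group came from separate cultures, so the p-values measure the spread between these libraries, which may be technical, and every result is from 1 cell line.

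The total count ran from 16941599 to 21879105 per library, and 16554 genes were tested. All 13 epithelial markers examined were among the tested genes, with summed levels of 4187 to 4453 CPM (counts scaled to library size) with PFHxA, 3770 to 4004 CPM with PFBA and 4079 to 4190 CPM in control. Ciliated and secretory airway markers had 8 of 11 tested. Their summed level was 39.9 to 44.9 CPM with PFHxA, 33.3 to 45.85 CPM with PFBA and 40.1 to 43.15 CPM in control. In that list the secretory genes SCGB1A1 and SCGB3A1 had no read in any library. Of the adipocyte markers 4 of 10 were tested, with a summed level of 10.3 to 16.4 CPM over the 12 libraries and LEP at 0 in all. Hepatocyte and leukocyte markers had 3 of 9 tested in each list. Fibroblast markers had 5 of 10 tested. The summed level of the fibroblast markers was 669 to 708 CPM with PFHxA, 663 to 899 CPM with PFBA and 639 to 895 CPM in control. In that list COL1A2 and LUM had no read with PFHxA, COL1A2 and DCN none with PFBA, and FAP none in control. The highest level in any library was 0.0466 CPM for COL1A2 and 0.109 CPM for DCN, so the sum rests on other genes of the list. The parts of these lists in the results below were not tested. Control d stood apart from the other controls, with 9.15% of its reads from mitochondrial genes. The share was 11.7 to 12.9% with PFHxA, 11.1 to 11.7% with PFBA and 10.97 to 11.9% in the other controls. The part of this share in the results was not tested, and fits without control d are given below for ACSL3 and PDK4. The counts of control d differed from those of the other controls by a chi-square per degree of freedom of 16.6 to 21.4, against 9.86 to 13.96 for all other pairs within a group. The PFHxA libraries stood apart in base composition. The slope of a library's deviation from the gene mean over transcript GC content was 0.0674 to 0.0984 log2 units per 10 GC points with PFHxA, -0.0683 to -0.0036 with PFBA and -0.0621 to -0.0085 in control. The slope and the exposure cannot be told apart in this design. Results that rest on PFHxA are therefore given as measured and again after the dependence on GC content and transcript length was taken out of every library, called the trend below.

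The promoter windows of the 9 genes were read first, to show which of them carry letters like the PPAR element. RefSeq (GRCh38.p14) gave 14 windows for the 9 genes, each running from 250 bases before to 50 bases after a transcript start. The element, a direct repeat of AGGTCA with 1 base between the copies, was searched on both strands with up to 2 mismatches. It was present in 1 window of ACAA2 and in 1 of the 5 windows of ACSL1, and in 2.97% of all 35116 windows of this length. No window of the 9 genes held it with 0 or 1 mismatch, and neither did any hold the exact hexamer AGGTCA, which 13.8% of all windows have. The E-box core CACGTG, which is part of the carbohydrate response element, was in the window of PLIN2 and in 7.26% of all windows. The matches are printed on the strand of each gene, with the matched letters in capitals. The one in ACAA2 begins at position -76 from the transcript start, that in ACSL1 at -114 and reads on the opposite strand, and that in PLIN2 at -69.
ACAA2, chr18:49813588-49813617, minus strand: caggaagtAGGTGAAAGGGCAggggcgtgg
ACSL1, chr4:184805646-184805675, minus strand: tcggcatgTGACTTGTGCCCTgagagacct
PLIN2, chr9:19127544-19127573, minus strand: gctgccgcgggtCACGTGctgcggaggctt
A match of letters is not a bound site, and elements outside these windows were not searched.

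Levels were compared between genes per length, as CPM per kilobase of the longest transcript. ACSL3 was the highest of the 9 at a mean of 15.4 CPM per kilobase over the 12 libraries, above 75.0% of the tested genes, and ACAA2 followed at 7.35 CPM per kilobase. These were first and second in each of the 12 libraries. PDK4 at 5.08, ACSL1 at 4.96 and PLIN2 at 3.71 CPM per kilobase changed places between libraries, so their order is not firm. PEX11A was sixth in each library at 2.14 CPM per kilobase and ANGPTL4 seventh at 0.688 CPM per kilobase, above 15.7% of the tested genes. TXNIP, at 0.178 CPM per kilobase, lay above 3.1% of them, and FABP3, at 0.0364 CPM per kilobase, was too low to test. Divided by the length of all exons together, PEX11A moved to rank 5 and PLIN2 to rank 6, and the other ranks stayed as they were.

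**Figure D1:**
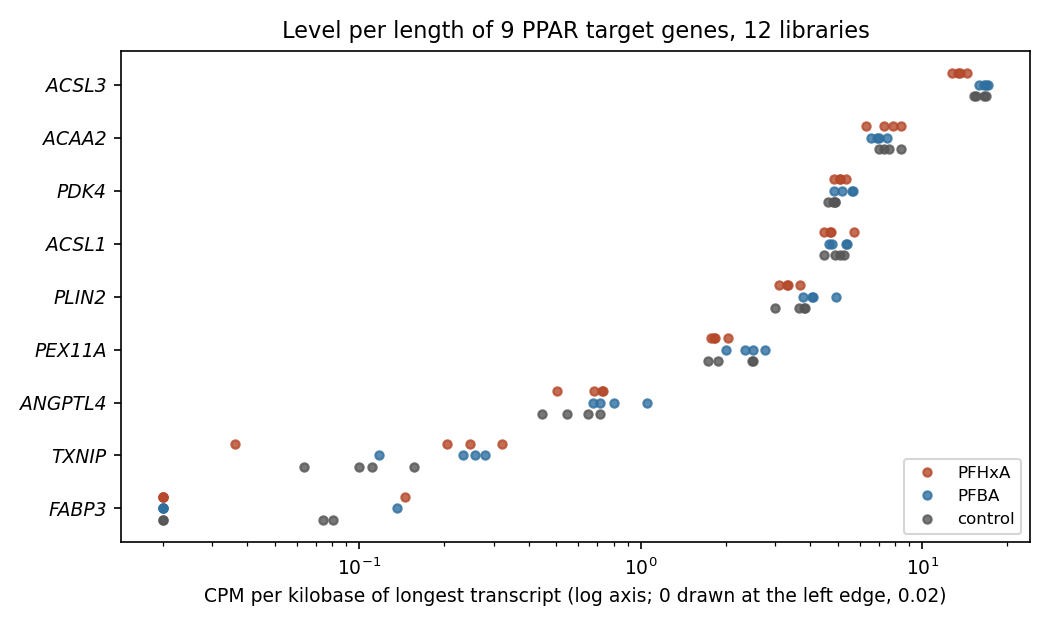
CPM per kilobase of the longest transcript (log axis) of the 9 PPAR target genes in each of the 4 PFHxA, 4 PFBA and 4 control libraries, 1 dot per library, with values of 0 drawn at the left edge. ACSL3 lay between 12.7 and 17.2 CPM per kilobase in all libraries and FABP3 at or below 0.146.

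One member passed the test against control, in 1 of the 2 exposures: ACSL3 fell with PFHxA. This is 1 of 8 tested members, where 14.9% of all tested genes were called with PFHxA against control in either direction and 8.82% were called lower. With PFBA no member was called against control, where 0.00604% of all genes were called, which is 1 gene. By an unadjusted p under 0.05 from edgeR's quasi-likelihood test, 3 members were higher with PFBA (PDK4, ANGPTL4 and PLIN2), beside 4.75% of all tested genes, and limma-voom and DESeq2 called none of the 8 either. Between the acids, ACSL3 was lower with PFHxA than with PFBA, again 1 of 8 members where 10.9% of all genes were called and 7.07% were called lower. The median log2 fold change of the 8 tested members was -0.01 for PFHxA against control, 0.15 for PFBA against control and -0.21 for PFHxA against PFBA, while the median of all tested genes was within 0.01 of 0 in each. The members' median with the trend removed was 0.01 for PFHxA against control, 0.16 for PFBA against control and -0.08 for PFHxA against PFBA, beside medians of all genes within 0.01 of 0. These 3 comparisons share libraries in pairs and are therefore not independent of each other.

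**Figure D2:**
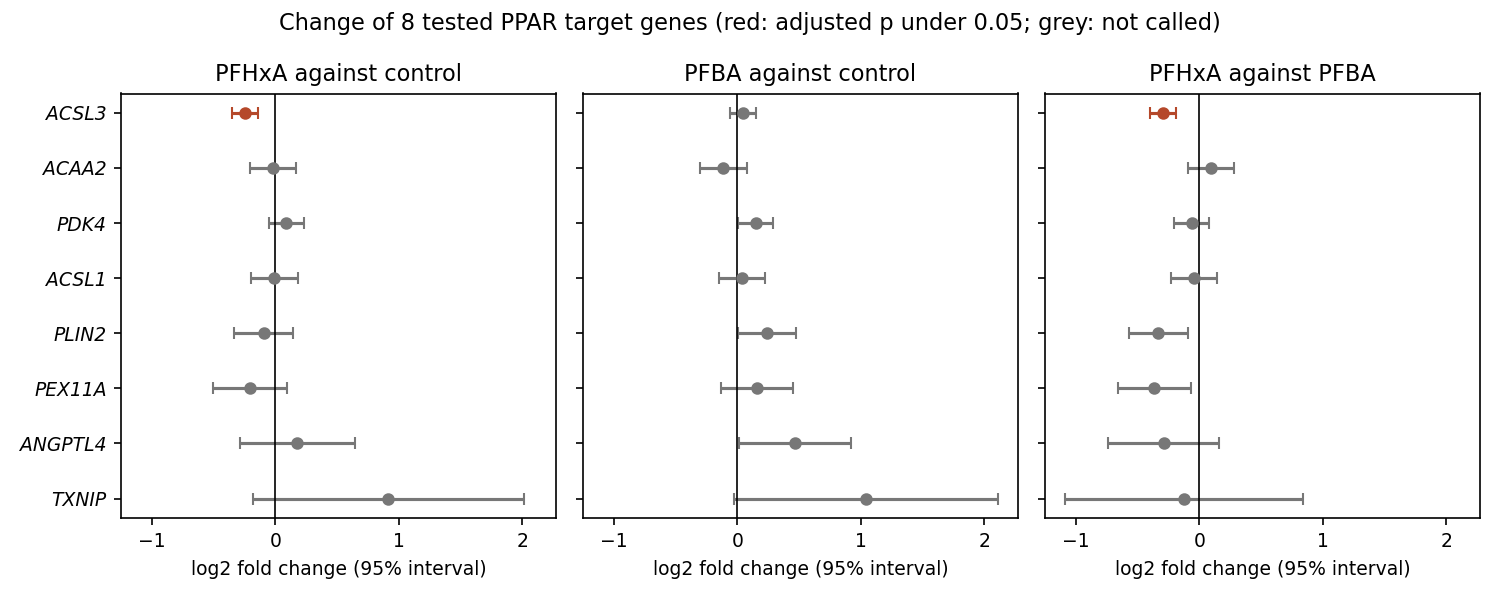
Log2 fold change (dot) with its 95% interval for the 8 tested PPAR target genes, in PFHxA against control, PFBA against control and PFHxA against PFBA, with genes at an adjusted p under 0.05 in red. ACSL3 is red at -0.25 and -0.30 in the comparisons with PFHxA on top, and the widest interval is that of TXNIP, the tested member with the fewest reads.

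ACSL3 and ACSL1 are long-chain acyl-CoA synthetases, which couple fatty acids to coenzyme A so that they can be stored or burned. ACSL3 sits on the endoplasmic reticulum and on lipid droplets, and ACSL1 is the form best known in liver, fat and heart. In GRCh38, ACSL3 (ENSG00000123983) is on chromosome 2 at chr2:222860934-222944639, plus strand, and ACSL1 (ENSG00000151726) at chr4:184755595-184826818, minus strand. ACSL3 had 81.7, 77.3, 76.1 and 72.2 CPM in the 4 PFHxA libraries (a to d), 97.5, 89.9, 95.2 and 94.4 CPM in the PFBA libraries and 95.7, 94.2, 86.5 and 88.0 CPM in the control libraries. Every PFHxA library was below every library of the other groups, while PFBA and control overlapped. The level with PFHxA was 0.843 times that of control (95% interval 0.783 to 0.908), a log2 fold change of -0.25 with an SE of 0.049 and an adjusted p of 0.0061. Against PFBA it was 0.815 times (0.757 to 0.877), with a log2 fold change of -0.30, an SE of 0.049 and an adjusted p of 0.00324. PFBA against control gave 0.05 on the log2 scale, with a fold interval of 0.961 to 1.11 and an adjusted p of 0.785. Without control d the difference of PFHxA from control was -0.26 (adjusted p = 0.00939). Separation of all 4 PFHxA libraries below all 4 controls was seen for 11.2% of all tested genes.

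The transcript of ACSL3 has a GC content of 38.1%. Among the 2217 tested genes with 35 to 40% GC, the median log2 fold change of PFHxA against control was -0.19 and 31.2% were called lower. The quartiles of that class were -0.32 and -0.07, and ACSL3 lay between the lower one and the median. With the trend removed, ACSL3 had 78.6 to 86.0 CPM with PFHxA, 87.8 to 91.6 CPM with PFBA and 85.7 to 91.9 CPM in control. The difference from control was then -0.09 on the log2 scale (fold interval 0.883 to 0.995, unadjusted p = 0.0366 and adjusted p = 0.253, from edgeR). That from PFBA was -0.11 (fold interval 0.874 to 0.9855, unadjusted p = 0.0186 and adjusted p = 0.251, from edgeR), and neither was called. Of all 16554 tested genes, 2846 had an unadjusted p under 0.05 against control and 2226 against PFBA. In that fit 0.882% of all genes were called between the acids, and none of the 8 members.

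ACSL1 gave no call in any comparison. It had 19.2, 18.3, 19.4 and 23.4 CPM with PFHxA, 22.1, 19.05, 22.1 and 19.7 CPM with PFBA and 21.6, 18.4, 20.9 and 20.02 CPM in control. The 3 groups overlapped throughout, and the fold interval against control was 0.872 to 1.13 with PFHxA and 0.9001 to 1.17 with PFBA. Of the 16 tested enzymes of the wider acyl-CoA synthetase list, 1 was called higher with PFHxA against control (SLC27A4, a fatty acid transport protein, by 0.18 on the log2 scale with an adjusted p of 0.0399) and ACSL3 alone was called lower. Over all tested genes the share called was 14.9% in either direction. With the trend removed none of the 16 was called, beside 2.62% of all genes. The other ACSL genes ran from ACSL4, at 8.68 CPM per kilobase with PFHxA, 8.30 with PFBA and 9.22 in control, to ACSL6, at 0.118 CPM per kilobase with PFHxA, 0.0790 with PFBA and 0.0788 in control, and none of them was called.

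PDK4 is a mitochondrial kinase that switches off pyruvate dehydrogenase and so spares glucose while fat is burned, and it is one of the most widely shared PPAR targets. The gene (ENSG00000004799) is at chr7:95583499-95596491, minus strand. It had 19.2, 18.3, 18.2 and 17.3 CPM with PFHxA, 18.6, 17.3, 20.2 and 20.1 CPM with PFBA and 17.2, 17.5, 17.5 and 16.5 CPM in control. In each exposed group 3 of 4 libraries were above the highest control and 1 lay among the controls. The spread was small, with a coefficient of variation of 4.19% for PFHxA, 7.19% for PFBA and 2.87% for control, where counting error alone gives 5.07 to 5.50%. The log2 fold change was 0.09 for PFHxA (SE 0.066, fold interval 0.963 to 1.17, adjusted p = 0.433) and 0.15 for PFBA (SE 0.065, fold interval 1.01 to 1.22, unadjusted p = 0.0391 and adjusted p = 0.482, both from edgeR).

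PDK4 is also a low-GC transcript, at 39.4%, and it did not lie with the other genes of that GC class, whose median with PFHxA was -0.19. With the trend removed it was called higher with PFHxA than in control, at 1.20 times (fold interval 1.10 to 1.32, log2 fold change 0.26, SE 0.061, adjusted p = 0.0403). Its corrected levels were 19.0 to 20.4 CPM with PFHxA, 17.3 to 19.4 CPM with PFBA and 15.5 to 17.2 CPM in control. It was the 1 member called in that fit, where 2.62% of all genes were. The call rests near the threshold. It was lost when a term for the column letter was added to the same fit (adjusted p = 0.071), and it held in 1 of the 12 fits that left out 1 library each, where the log2 fold change was 0.23 to 0.29 and the adjusted p 0.0439 to 0.104. Without control d it was 0.23 (adjusted p = 0.0973). PFHxA against PFBA was -0.06 as measured and 0.11 with the trend removed, and neither was called.

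PDK4 was also read beside a list of pyruvate dehydrogenase genes. The paralog PDK1, a kinase of the same complex that is best known as a hypoxia target, fell with PFHxA, at 32.9 ± 0.725 CPM, against 37.9 ± 1.39 CPM in control (SD, n = 4 each; log2 fold change -0.20, adjusted p = 0.0139 by edgeR). With PFBA PDK1 had 42.4 ± 1.70 CPM, a difference from control that did not pass (log2 fold change 0.16, adjusted p = 0.321 by edgeR). Of the 14 genes of that list, all tested, 2 were called lower with PFHxA (PDK1 and DLD, the dihydrolipoamide dehydrogenase subunit) and none higher, and with the trend removed neither was called and PDK4 was the only call. Over all tested genes 8.82% were called lower with PFHxA against control. PDK4 is also a known glucocorticoid target, and none of the 11 tested genes of a list of such targets was called in any of the 3 comparisons. A part of glucocorticoids in the PDK4 values was not tested.

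ACAA2 and PEX11A belong to fatty acid breakdown. ACAA2 is the mitochondrial thiolase of the last step of β-oxidation, and PEX11A is a membrane protein that helps peroxisomes to elongate and divide, named with the proliferation of peroxisomes that gave PPARs their name in rodent liver. ACAA2 (ENSG00000167315) lies at chr18:49782167-49813960 and PEX11A (ENSG00000166821) at chr15:89677764-89690783, both on the minus strand. ACAA2 had 21.1, 26.4, 24.5 and 28.1 CPM with PFHxA, 23.1, 23.6, 25.2 and 21.93 CPM with PFBA and 23.5, 28.2, 24.4 and 25.4 CPM in control. The groups overlapped, and the PFHxA libraries alone spanned nearly the whole range. The fold interval against control was 0.866 to 1.13 for PFHxA and 0.811 to 1.05 for PFBA, with adjusted p of 0.925 and 0.709. ACAA2 was the 1 tested member with its highest mean in control as measured, while with the trend removed its means were 25.52 CPM with PFHxA, 23.3 CPM with PFBA and 25.3 CPM in control. Among the 6 thiolases, SCP2, HADHB and ACAT1 were called lower with PFHxA against control, with log2 fold changes of -0.42 to -0.17 as measured, and none was called with the trend removed. Over all tested genes 8.82% were called lower as measured.

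PEX11A had 4.97, 5.60, 5.03 and 4.84 CPM with PFHxA, 5.51, 6.85, 7.56 and 6.41 CPM with PFBA and 6.81, 4.77, 6.85 and 5.14 CPM in control. The controls fell into a higher and a lower pair, and the PFHxA libraries sat with the lower pair. None of its comparisons was called, with a fold interval of 0.705 to 1.07 for PFHxA against control, 0.910 to 1.37 for PFBA against control and 0.633 to 0.954 for PFHxA against PFBA (adjusted p of 0.368, 0.745 and 0.107). By edgeR with the trend removed, the log2 fold change with PFHxA was -0.14 against control (adjusted p = 0.687) and -0.30 against PFBA (adjusted p = 0.377). Its paralog PEX11G was not called either. In the list of 29 peroxisome genes 27 were tested, none was called higher with PFHxA, and ABCD3, PEX3 and SCP2 were called lower, all 3 of which missed the threshold with the trend removed. Over all tested genes 8.82% were called lower as measured with PFHxA against control.

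PLIN2 and FABP3 handle stored and free fatty acids. PLIN2 coats lipid droplets in most cell types, and its level follows the lipid a cell holds. It (ENSG00000147872) lies at chr9:19108375-19149290 and FABP3 (ENSG00000121769) at chr1:31365625-31376850, both on the minus strand. PLIN2 had 7.27, 6.50, 6.59 and 6.08 CPM with PFHxA, 8.06, 9.77, 7.99 and 7.44 CPM with PFBA and 7.51, 7.20, 5.93 and 7.53 CPM in control. All 4 PFHxA libraries were below all 4 PFBA libraries, a separation in that direction that 10.8% of all tested genes show, and both acids overlapped the controls. PFHxA was at 0.795 times the PFBA level (0.675 to 0.936), with a log2 fold change of -0.33, an SE of 0.11 and an adjusted p of 0.0688, which missed the threshold. With the trend removed the difference was -0.34 (adjusted p = 0.185), of like size. Against control PLIN2 gave -0.09 with PFHxA (adjusted p = 0.648) and 0.24 with PFBA (unadjusted p = 0.0472 and adjusted p = 0.503, from edgeR). By edgeR with the trend removed, PFHxA against control gave -0.08 (adjusted p = 0.801). PLIN3, the perilipin with the highest level here, was at 31.5 CPM per kilobase with PFHxA, 27.6 with PFBA and 28.5 in control, above PLIN2 in every library, and was not called.

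FABP3, a fatty acid binding protein of heart and skeletal muscle, was close to absent. It had 2 reads in PFHxA library b and none in the other PFHxA libraries, 2 reads in PFBA library d and none in the other PFBA libraries, and 1 read each in control libraries c and d. A count of 0 allows up to 3 counts, which is 0.137 to 0.166 CPM in the libraries without a read, and covers counting error only. No difference was detectable at this depth. FABP5, the epidermal member of the family, had most of the family's reads and fell with PFHxA, at 50.4 ± 2.10 CPM, against 59.2 ± 2.46 CPM in control (SD, n = 4 each; log2 fold change -0.23, adjusted p = 0.00782 by edgeR), and at -0.17 with the trend removed it missed the threshold (adjusted p = 0.059).

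ANGPTL4 is a secreted inhibitor of lipoprotein lipase and among the most inducible PPARD targets. The gene (ENSG00000167772) is at chr19:8363289-8374373, plus strand. It was low, at 1.37, 1.37, 0.95 and 1.29 CPM with PFHxA, 1.28, 1.51, 1.35 and 1.97 CPM with PFBA and 0.84, 1.22, 1.02 and 1.34 CPM in control. With PFBA 3 of 4 libraries lay above the highest control, library c by less than 0.01 CPM, and with PFHxA 2 of 4 did. The mean count per library was 23.5 with PFHxA, 31.0 with PFBA and 21.0 in control, and the coefficients of variation of 16.1%, 20.5% and 19.9% are near the 17.96 to 21.8% that counting alone gives. The log2 fold change was 0.18 for PFHxA against control (fold interval 0.819 to 1.57, adjusted p = 0.651) and 0.47 for PFBA against control (1.01 to 1.90, unadjusted p = 0.0433 and adjusted p = 0.493, from edgeR). By edgeR with the trend removed, PFHxA against control gave 0.11 (adjusted p = 0.855). The gene overlaps ELAVL1 and RAB11B-AS1 on the opposite strand, but of its 2482 bases of exon it shares 0 with exons of ELAVL1 and 1 with those of RAB11B-AS1. Its paralog ANGPTL2 rose with PFHxA to 44.3 ± 2.23 CPM, against 34.6 ± 3.50 CPM in control (SD, n = 4 each; log2 fold change 0.35, adjusted p = 0.00566 by edgeR), and at 0.27 with the trend removed it missed the threshold (adjusted p = 0.0535). ANGPTL4 is also induced by hypoxia, and of 19 hypoxia targets 4 were called lower with PFHxA (P4HA1, BNIP3, PDK1 and SLC2A1), none higher, and none with PFBA. BNIP3 and SLC2A1 were the 2 called with the trend removed. Over all tested genes 8.82% were called lower with PFHxA as measured, and 2.62% were called in either direction with the trend removed. A part of hypoxia in the ANGPTL4 values was not tested.

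TXNIP is an α-arrestin that binds thioredoxin and limits glucose uptake, and it is known as a target of the glucose-sensing factor MondoA as well as of PPARs. The gene (ENSG00000265972) is at chr1:145992435-145996600, minus strand. Its counts were 11, 2, 13 and 19 with PFHxA, 15, 14, 17 and 7 with PFBA and 4, 9, 6 and 5 in control. In each exposed group 3 of 4 libraries were above the highest control, while PFHxA library b was below the lowest control and PFBA library d lay among them. The coefficient of variation was 59.6% with PFHxA, 32.5% with PFBA and 35.2% in control, where counting error alone gives 29.8%, 27.5% and 40.8%. The fold against control was 1.89 with PFHxA (interval 0.881 to 4.03, adjusted p = 0.265) and 2.06 with PFBA (0.979 to 4.32, adjusted p = 0.523), the highest fitted folds of the 8 tested members, and neither was called. No control count reached the filter's minimum of 10, so TXNIP was tested only because of its exposed libraries. That selection favours a higher fit with exposure. Without PFHxA library b the log2 fold change of PFHxA against control was 1.27 in place of 0.92, with an adjusted p of 0.0564. By edgeR with the trend removed, the log2 fold change was 1.341 without that library (adjusted p = 0.124) and 0.995 with all libraries (adjusted p = 0.349).

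Several genes of the α-arrestin and glucose-sensing list changed with PFHxA. Against control 14.9% of all tested genes were called with PFHxA and 8.82% were called lower, and 2.62% were called with the trend removed. ARRDC3, another α-arrestin, fell with PFHxA to 39.5 ± 4.23 CPM, against 55.2 ± 2.47 CPM in control (SD, n = 4 each; log2 fold change -0.48, adjusted p = 0.00177 by edgeR), and was called again once the trend was removed (adjusted p = 0.0318). TXN, the thioredoxin that TXNIP binds, fell by 0.46 on the log2 scale (adjusted p = 0.00463, and 0.0267 with the trend removed). SLC2A1, the glucose transporter that TXNIP is known to restrain, fell by 0.33 (adjusted p = 0.0285, and 0.0280 with the trend removed). Of the 14 tested genes of this list, 3 were called lower and 1 higher (MLXIP, which encodes MondoA, at 0.22 with an adjusted p of 0.00995, and 0.748 with the trend removed), and with PFBA none was called. After removal of the trend 4 were called lower and none higher, the fourth being HK2, a hexokinase (-0.17, adjusted p = 0.0201, against -0.07 and 0.363 as measured). ARRDC4, the other known MondoA target among the α-arrestins, was at 1.86 ± 0.432 CPM with PFHxA, 1.64 ± 0.266 CPM with PFBA and 2.06 ± 0.219 CPM in control (SD, n = 4 each) and was not called.

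**Figure D3:**
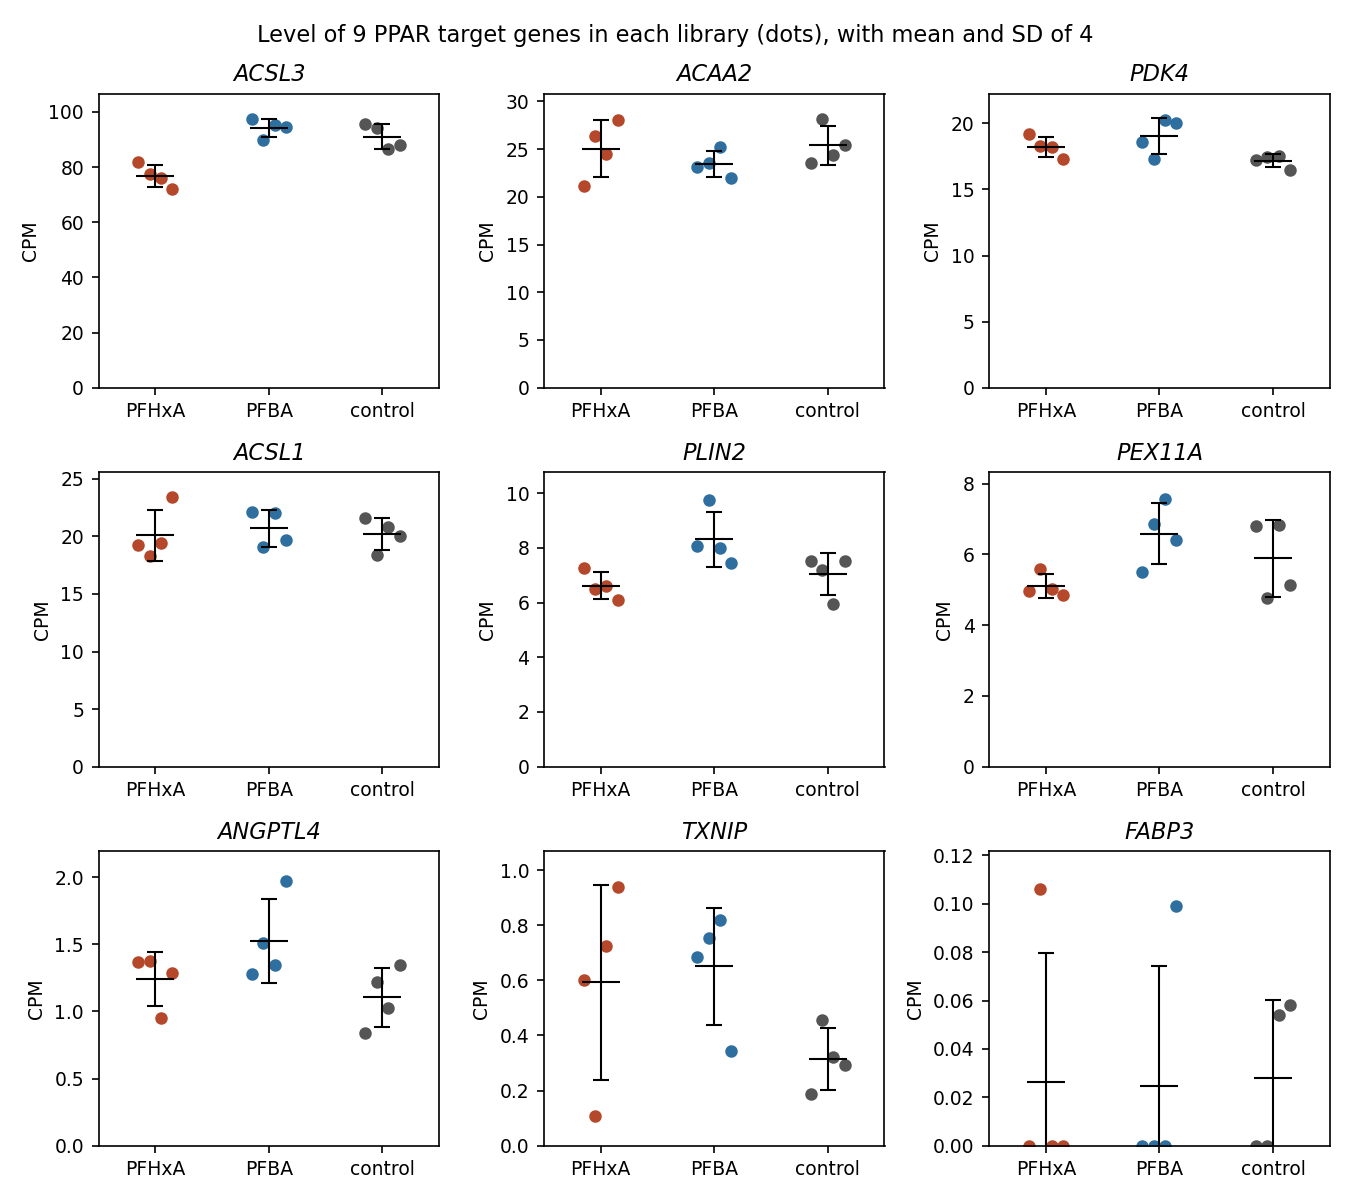
Level in CPM of each of the 9 PPAR target genes in the 4 PFHxA, 4 PFBA and 4 control libraries (dots), with the mean and SD of each group, on axes that start at 0. The PFHxA libraries of ACSL3 lie below all others, PDK4 spans 16.5 to 20.2 CPM over all libraries, and FABP3 has at most 0.106 CPM.

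Across the members, 7 of 8 had their highest group mean with PFBA and ACAA2 had it in control, while 28.5% of all tested genes had theirs with PFBA. After removal of the trend 6 of 8 had it with PFBA, beside 27.6% of all genes, and PDK4 and ACAA2 had it with PFHxA. As measured, the same 7 were fitted higher with PFBA than in control, where 49.1% of all genes were. The sizes were small for most of them, at 0.04 to 0.24 on the log2 scale for ACSL1, ACSL3, PDK4, PEX11A and PLIN2 and 0.47 and 1.04 for the low genes ANGPTL4 and TXNIP, and no adjusted p was under 0.482. TXNIP, counted among the 7, passed the filter only through exposed libraries, which favours a higher fit with exposure. With PFHxA 3 of 8 were fitted higher than control (PDK4, ANGPTL4 and TXNIP), where 49.4% of all genes were. In the trend-removed fit 5 of 8 were, beside 50.2% of all genes, since ACAA2 and ACSL1 then lay just above 0 at 0.01 each.

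**Figure D4:**
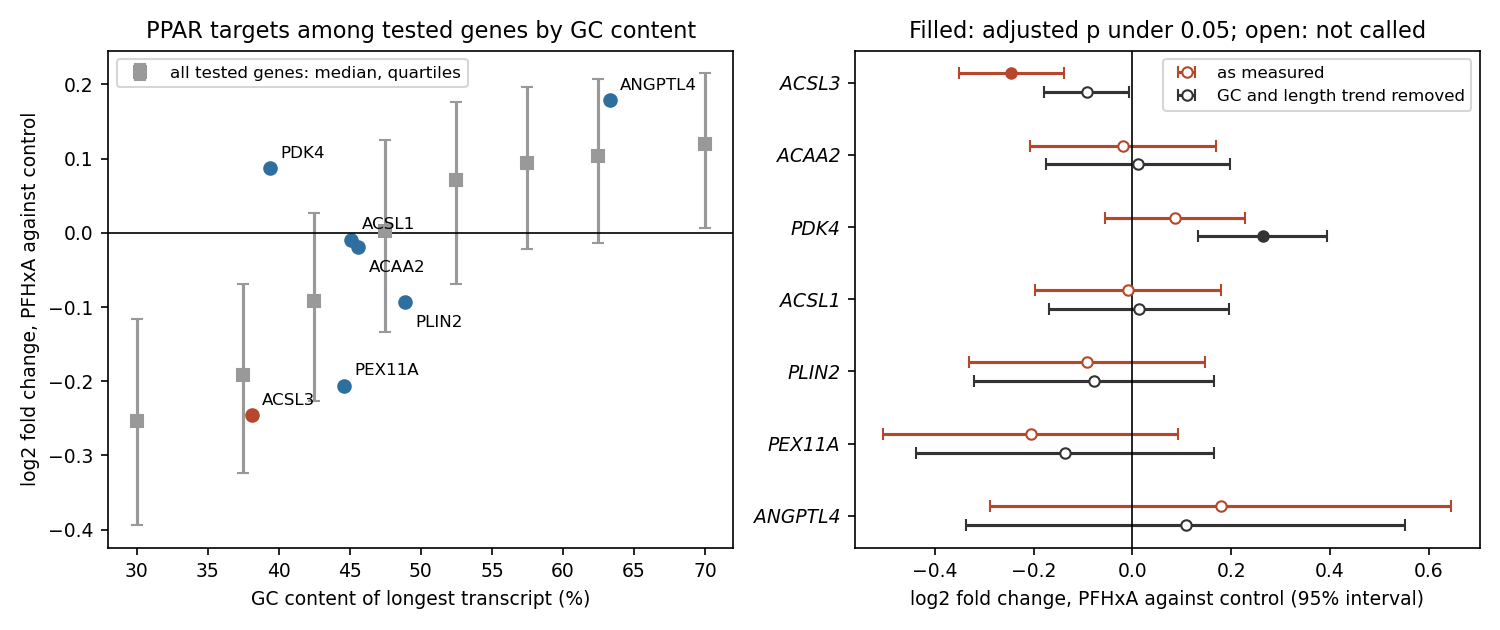
Left, log2 fold change of PFHxA against control by GC content of the longest transcript, with grey squares and bars for the median and quartiles of all tested genes in each GC class and dots for 7 PPAR target genes (ACSL3 in red); right, the same 7 genes with 95% intervals, as measured and with the GC and length trend removed, filled where the adjusted p is under 0.05. ACSL3 lies near the median of its class and PDK4 above it, and TXNIP, at 0.92, is beyond the axes.

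The 3 receptors were detected in every library. PPARD was the main form, at 29.3 ± 0.870 CPM per kilobase with PFHxA, 25.4 ± 0.907 with PFBA and 24.97 ± 1.71 in control (SD, n = 4 each). It was called higher with PFHxA against control as measured (log2 fold change 0.23, adjusted p = 0.0101) and not with the trend removed (0.12, adjusted p = 0.216). PPARA was at 1.12 ± 0.180 CPM per kilobase with PFBA and 0.998 ± 0.156 in control, and PPARG at 0.297 ± 0.0705 CPM per kilobase with PFHxA, 0.281 ± 0.0629 with PFBA and 0.202 ± 0.0602 in control (SD, n = 4 each). In CPM, PPARA had 9.23, 56.6, 10.3 and 10.3 with PFHxA, 8.70, 12.95, 11.3 and 11.8 with PFBA and 10.8, 10.04, 11.3 and 7.77 in control. A single library, PFHxA b, stood apart from all others. PPARA was not called (log2 fold change 1.11, adjusted p = 0.245), and without PFHxA b its log2 fold change was 0.002 (adjusted p = 0.996). In that library 8 of the 9 members lay within the range of the other 11 libraries or below it, and FABP3 had 2 reads.

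RXRA was called higher with PFHxA, at 39.3 ± 0.851 CPM, against 34.6 ± 0.974 CPM in control (SD, n = 4 each; log2 fold change 0.18, adjusted p = 0.0154 by edgeR), and not with the trend removed (0.02, adjusted p = 0.894). RXRB was not called in any comparison. Of the 17 tested receptors, RXR partners and cofactors, 3 were called higher and 2 lower with PFHxA against control, where 14.9% of all tested genes were called. With the trend removed none of the 17 was called, and none with PFBA. The 2 that fell were FABP5, which carries ligand to PPARD, and the corepressor NRIP1.

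Other PPAR targets were set beside the 9 genes. For PFHxA against control, 14.9% of all tested genes were called as measured and 2.62% with the trend removed. Of 25 genes of fatty acid oxidation and carnitine transport 23 were tested, of which CPT1A was called higher and ACADM and HADHB lower with PFHxA against control. CPT1A, the carnitine transferase that lets long-chain fatty acids into mitochondria, had 87.7 ± 4.68 CPM with PFHxA and 68.0 ± 2.32 CPM in control (SD, n = 4 each; log2 fold change 0.37, adjusted p = 0.00117 by edgeR), and kept its call with the trend removed (0.27, adjusted p = 0.00953). In that fit neither ACADM nor HADHB was called, and CPT2, the inner-membrane partner of CPT1A, was called higher (0.24, adjusted p = 0.013, against 0.07 and 0.349 as measured). Of 35 other lipid targets 20 were tested, and the median GC content of the 20 was 56.5%. Among all tested genes with 55 to 60% GC, 11.3% were called with PFHxA against control, and 0.535% were called lower. Of the 20, 5 were called higher with PFHxA and none lower, where 1006 of all 16554 tested genes were called higher. Those 5 were CPT1A again, TRIB3, a stress-induced pseudokinase, the desaturases SCD and FADS2, and SLC27A4, of which CPT1A and TRIB3 were also called with the trend removed. CD36 and FABP1, PPAR targets of fat and liver, had no read in any library. With PFBA no gene of either list was called against control.

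By Pearson's r of log2 CPM over the 12 libraries, the genes most like ACSL3 were SREK1 (r = 0.972), CNTRL (r = 0.969) and RBM41 (r = 0.969), among tested genes with a mean of at least 5 CPM. These are transcripts of 35.4, 42.7 and 39.2% GC. The 12 points share the 3 groups and the GC slope of the PFHxA libraries, and with the trend removed the values were 0.646, 0.872 and 0.859. The nearest genes on the corrected values were PNPT1 (r = 0.875), SRP54 (r = 0.874) and HARS2 (r = 0.872).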

How the data were processed

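The authors deposited 1 table with raw read counts per gene for each of 12 libraries, and those counts were used. Its 12 further columns of per-library values, FPKM by their names, were not used. Per the submitters' processing notes, reads were aligned with HISAT2 2.0.4 to GRCh38 (hg38). The counting program, annotation release and strand setting were not given in the sources used here. Columns were tied to groups by their prefix. Their letters a to d only name a library and are not tied to label numbers.

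The 9 genes, the other gene lists and the tests were chosen with earlier results of these data known. Counts were fitted in R 4.3.3 with edgeR 4.0.16: filterByExpr (minimum count 10, total 15), TMM scaling, 1 robust quasi-likelihood fit of all 12 libraries, two-sided F tests and Benjamini-Hochberg adjustment over all 16554 tested genes, with a threshold of 0.05 and 95% intervals. CPM uses TMM-scaled totals. Levels were ordered by CPM per kilobase of the longest transcript in the GENCODE annotation given, in place of the FPKM first planned, with the length of all exons as an alternative chosen after seeing the data. The trend over GC content and log2 length (longest transcript, splines with 5 degrees of freedom each) was removed as an offset. The scripts were tested on simulated data.

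All 9 genes are named. From other lists up to 3 genes with the smallest p for PFHxA and up to 2 for PFBA were named, plus receptors, close paralogs and, after their values were seen, SLC2A1, FADS2, ARRDC4, CD36, FABP1, CPT2 and HK2. A few genes that these rules would name are not reported here. Alternatives were RLE and upper-quartile scaling, 2 filters, limma-voom (limma 3.58.1), DESeq2 1.42.0, non-robust dispersion, fits of 8 libraries, a block for column letter and leaving out each library. The last was also run with the trend removed for the 8 tested genes, chosen after seeing the data, with values given for ACSL3, PDK4 and TXNIP.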

Additional observations from a re-analysis of the deposited data

Results flagged for a closer look

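PPARA in PFHxA library b, at 56.6 CPM, lay far above the other 3 PFHxA libraries, which had 9.23 to 10.3 CPM, by a test of the gap between the highest sample and its nearest neighbour. This was 1 of 42 groups of 4 libraries examined over the 8 tested PPAR target genes, 5 receptors and CPT1A, and chance gives about 1 in 20. The 1071 reads behind it, beside 169 to 209 in the other PFHxA libraries, are not a matter of counting error. No cause was tested.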

How the results depend on the processing

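Fold changes of the 8 tested genes kept their direction and their side of the threshold in 244 of 256 fits under other settings and in 277 of 288 fits with 1 library left out. ACSL3 stayed called without any 1 library, at -0.276 to -0.216 for PFHxA against control and -0.325 to -0.265 against PFBA. With the GC and length trend removed, without and with a block for column letter, its values were -0.093 and -0.093 against control and -0.107 and -0.108 against PFBA. The members called against control were then PDK4 alone and 0, and between the acids 0 in both. PDK4 against control was 0.264 without the block, and 0.233 to 0.287 with 1 library left out (adjusted p 0.0439 to 0.104, called in 1 of 12 fits), where ACSL3 was -0.109 to -0.065 and never called. PDK4 in PFHxA against PFBA turned to 0.112 in both, ACAA2 in PFHxA against control to 0.011 and 0.008, and ACSL1 to 0.013 and 0.012, and to 0.003 with upper-quartile scaling. All genes called were 433 and 342 in place of 2466 for PFHxA against control, and 146 and 106 in place of 1806 between the acids. For PFBA against control they were 31 with DESeq2, 2 without a filter or with 8 libraries, 0 with limma-voom and 0 with the block, in place of 1.

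With 1 library left out, signs turned within these ranges: ACAA2 -0.078 to 0.055 and ACSL1 -0.09 to 0.04 for PFHxA against control, ACSL1 -0.008 to 0.074 for PFBA against control, and ACSL1 -0.126 to 0.001 and TXNIP -0.451 to 0.225 between the acids. Same-letter libraries shared no deviation, with correlations of -0.09 to 0.062, which does not tell whether they were cultured or handled together. The replicate block without the correction changed no call of the 9 genes. TXNIP and ANGPTL4 were not tested under the stricter filter. The planned order of levels by deposited FPKM was not run. Depth limits ANGPTL4, TXNIP and FABP3, whose counts per library were at most 40, 19 and 2.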
